A study of Mus musculus with 24 samples.

Results

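Lungs of mice that had breathed diesel exhaust (DE) were compared with lungs of healthy control mice (C), using the 3 DE and the 3 C libraries of a series of 24. The labels assign each of the 6 libraries to its group. The wider study asks whether remote ischemic conditioning, alone or with pirfenidone, alters the lung disease that the exhaust is used to model. All mice were male C57BL/6, and the labels give an age of 20 weeks. DE mice spent 30 min per day, 5 days per week, for about 8 weeks in a chamber joined to a diesel engine and a HEPA filter, and received no drug and no conditioning. C mice carry no treatment in the labels, which describe no sham chamber session for them. Each library is polyadenylated RNA from 1 lung sample kept in RNAlater. The labels also carry a batch date without saying what was done on it, October for DE 1, 2 and 3 and for C 2 and 3, and March for C 1.

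Diesel exhaust is a mixture of soot and gases. Polycyclic aromatic hydrocarbons on the soot bind the aryl hydrocarbon receptor, a transcription factor that switches on Cyp1a1 and Cyp1b1, and oxidants in the smoke release the factor NRF2, which drives antioxidant genes such as Hmox1 and Nqo1. Alveolar macrophages take up the particles. In a fibrosing lung, TGF-beta turns fibroblasts into contractile, collagen-secreting myofibroblasts, and immune cells can gather in lymphoid aggregates along airways and vessels.

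The defining genes of lung were high in all 6 libraries. Levels are in CPM, counts scaled to the size of the library. Sftpc, the surfactant protein of alveolar type 2 cells, had 20300, 29600 and 27390 CPM in DE 1, 2 and 3, against 22180, 19800 and 23900 CPM in C 1, 2 and 3. Ager, which marks alveolar type 1 cells, was between 3006 and 4564 CPM in DE lungs and between 2672 and 3622 CPM in C lungs. Scgb1a1, the secretoglobin of club cells, was between 29860 and 55920 CPM in DE lungs and between 26960 and 35740 CPM in C lungs. None of these 3 genes separated the groups. Library totals were 5700391 to 8885406 counts in DE lungs and 7789841 to 15975293 counts in C lungs. All CPM values below are scaled by the trimmed mean of M values.

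One library of each group stood apart before any test. Of 15889 genes at a mean of 1 CPM or more, 833 were over 2-fold above the mean of the C libraries in DE 1, against 119 in DE 2 and 260 in DE 3. Of the 122 genes that spanned more than 8-fold among the DE lungs, 111 were highest in DE 1 and 102 were lowest in DE 2. A length trend was measured on each gene's log2 level minus its median over the whole series. In C 1, the March library and the deepest, this deviation correlated across genes with exon length (Spearman rho 0.328). The same correlation was negative in the other 5 libraries, between -0.307 and -0.21 in DE lungs and between -0.271 and -0.167 in C 2 and C 3. For many lists, though not all, the median is also given without DE 1, without another library or among October libraries. The same holds for some single genes where 1 library decides the value. A value that is not given can still differ from the full one.

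Across the genome, no gene passed the edgeR test over all libraries. Of 17490 genes tested with edgeR's quasi-likelihood test, 0% had an adjusted p under 0.05, although 582 genes had an unadjusted p under 0.05, which is 3.33%. Of these 582, 341 were higher in DE lungs (1.95%) and 241 were lower (1.38%). Counts of unadjusted p in the lists below are to be read against these shares. The edgeR count of genes with an unadjusted p under 0.05 depended on the fit. It was 1361 of 17477 genes among October libraries. With the DE and C libraries alone it was 1146 of 15575 genes, or 1394 with the batch term. A replicate block with the batch term gave 408 of 17490 genes. DESeq2 on the genes of the main test called 13, all of them higher in DE lungs (0.0743%). Without DE 2, edgeR called 16 of 18256 genes (0.0876%), again all higher in DE lungs, and 11 genes were shared between these 2 sets of calls. The median log2 fold change over all genes was -0.001, and 49.9% of genes were above 0. The 3 DE libraries lay wholly above the 3 C libraries in 1329 genes (7.6%) and wholly below them in 1200 genes (6.86%), and these shares are the background for every such count below. With 3 libraries a side the smallest exact two-sided permutation p for a single gene is 0.1. Nothing in the labels says which mice shared a cage or a day, so p-values measure only the spread between libraries. In the main model, p-values and SEs rest on a spread estimated over all 24 libraries of the series, not on the 6 alone.

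The 3 genes with the smallest unadjusted p, Cd209b, Timd4 and Pla2g2d, belonged to the lymphoid tissue list. Many macrophage and stromal genes of lymph nodes and spleen were higher in DE 1 and DE 3, some of them many-fold, while DE 2 was close to the C lungs. Of 21 such genes tested, 19 had a log2 fold change above 0, and the values ran from -0.28 to 5.49. Of the 21, 12 had an unadjusted p under 0.05 with DE higher, against 1.95% of all genes, and none with DE lower. In 7 of the 21, the 3 DE libraries lay above the 3 C libraries, against 7.6% of all genes. The median log2 fold change of the list was 1.45, against -0.001 over all genes. It was 0.80 without DE 1 and 1.34 among October libraries. The lists were chosen with earlier results of these data known, so these counts and medians are descriptions and not tests.

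Cd209b, a C-type lectin of marginal zone and sinus macrophages, had 80.0, 1.34 and 30.6 CPM in DE 1, 2 and 3, against 1.12, 0.967 and 1.62 CPM in C 1, 2 and 3. DE 1 and DE 3 lay far above every C library, while DE 2 lay inside their range. Across the other 18 libraries of the series, Cd209b stayed between 0.535 and 2.59 CPM. Its log2 fold change was 4.95 ± 0.85 (SE; edgeR adjusted p = 0.192), and DESeq2 called it with an adjusted p of 8.795e-05. For Cd209b the edgeR adjusted p was 2.233e-05 without DE 2 and 1 without DE 1, where the log2 fold change was 3.70. No gene was called without DE 1.

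Timd4, a phosphatidylserine receptor of resident macrophages that clear dead cells, had 28.0, 2.09 and 17.4 CPM in the DE lungs, against 1.80, 1.57 and 0.974 CPM in the C lungs. Here even DE 2 lay above the highest C library. The log2 fold change of Timd4 was 3.49 ± 0.63 (edgeR adjusted p = 0.192, DESeq2 adjusted p = 8.795e-05). Stab2, a scavenger receptor of sinusoidal endothelium, showed the same order, with 24.2, 2.84 and 9.32 CPM in DE lungs against 1.12, 2.78 and 2.16 CPM in C lungs.

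The chemokines that lay out lymphoid tissue followed. Cxcl13, which draws B cells into follicles, had 34.3, 5.08 and 15.5 CPM in DE lungs, against 6.14, 3.87 and 2.38 CPM in C lungs. Ccl19, which guides T cells and dendritic cells through CCR7, had 24.3, 1.19 and 13.2 CPM in DE lungs, against 0.248, 1.57 and 0.866 CPM in C lungs. DE 1 and DE 3 were again the high libraries for both genes, and DE 2 lay inside the range of the C lungs. Ccl21a, the other CCR7 ligand, had 333, 131 and 199 CPM in DE lungs, against 76.9, 95.6 and 80.1 CPM in C lungs, and its groups did not overlap. The DESeq2 adjusted p was 0.0047 for Cxcl13, 0.0070 for Ccl19 and 0.049 for Ccl21a, and the edgeR adjusted p was 0.445 for Cxcl13 and Ccl19 and 0.499 for Ccl21a.

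Pla2g2d, a secreted phospholipase of dendritic cells and macrophages in lymphoid organs, had 54.0, 4.48 and 28.6 CPM in DE lungs, against 2.42, 3.75 and 5.09 CPM in C lungs. Dnase1l3, a nuclease released by macrophages and dendritic cells, had 48.8, 2.09 and 16.0 CPM in DE lungs, against 3.53, 1.69 and 3.03 CPM in C lungs. Il22ra2, the soluble decoy for interleukin 22, had 8.65, 0.896 and 9.49 CPM in DE lungs, against 1.36, 0.604 and 0.649 CPM in C lungs. For all 3 genes DE 2 overlapped the C lungs. Cfp, which encodes properdin of the alternative complement pathway, did not overlap, with 74.0, 31.5 and 43.6 CPM in DE lungs against 18.5, 28.4 and 24.9 CPM in C lungs.

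Cd5l, a secreted protein of tissue macrophages, had 14.9, 0.299 and 2.29 CPM in DE lungs, against 0.124, 0.121 and 0.108 CPM in C lungs. Pcdh15, a protocadherin best known from hair cells of the ear, had 8.43, 0.299 and 2.46 CPM in DE lungs, against 0, 0.121 and 0.108 CPM in C lungs. Neither gene overlapped, though DE 2 and the C lungs were near the limit of counting.

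Glycam1, a mucin of the high endothelial venules through which lymphocytes enter lymph nodes, was counted in too few libraries to pass the filter of the main test. It had 39.2, 0.299 and 16.9 CPM in DE lungs, against 0, 0 and 0.108 CPM in C lungs. In the fit without DE 2 it was tested, with a log2 fold change of 8.95 and an edgeR adjusted p of 0.00087. Madcam1, an adhesion molecule of mucosal venules, had 1.21 and 1.23 CPM in DE 1 and DE 3, and 0 CPM in DE 2 and all 3 C lungs. The summed level of the 21 lymphoid genes was 1732, 732 and 1110 CPM in the DE lungs and 585, 664 and 658 CPM in the C lungs, against 523 to 809 CPM in the other 18 libraries. In bulk tissue, more cells of a type and more RNA per cell cannot be told apart.

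**Figure D1:**
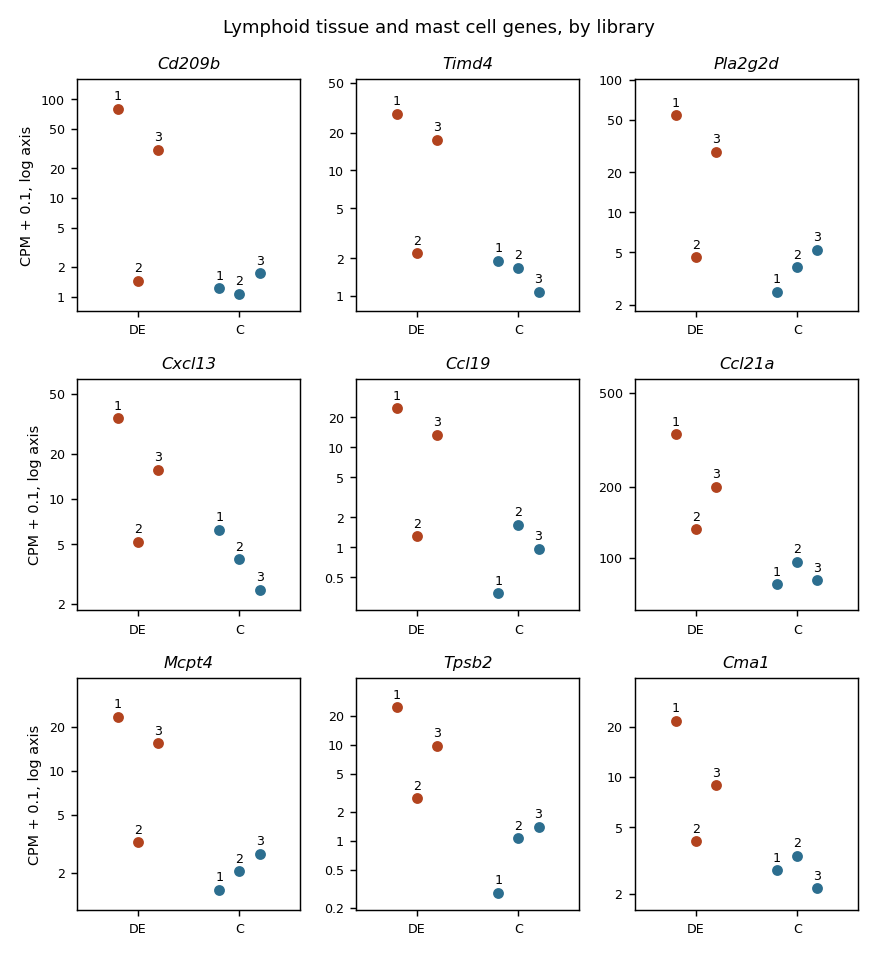
Level of 6 lymphoid tissue genes (Cd209b, Timd4, Pla2g2d, Cxcl13, Ccl19, Ccl21a) and 3 mast cell genes (Mcpt4, Tpsb2, Cma1) in each library, in CPM on a log axis after adding 0.1. Each point is 1 library, numbered, with the DE lungs left of the C lungs; DE 1 and DE 3 lie above the C lungs in every panel, while DE 2 lies among or just above them.

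Lymphocyte genes differed less and mainly in DE 1. Of 25 T cell genes, 7 had an unadjusted p under 0.05 with DE higher, 6 had DE wholly above C, and the median log2 fold change was 0.52. Without DE 1 that median was 0.08. Trac, the constant chain of the alpha-beta T cell receptor, had 44.2, 16.1 and 24.1 CPM in DE lungs, against 9.11, 15.1 and 14.3 CPM in C lungs. Foxp3, which defines regulatory T cells, had 6.13, 1.94 and 2.81 CPM in DE lungs, against 1.05, 1.81 and 1.73 CPM in C lungs. Both genes were above all C lungs in every DE lung, with DE 2 only just above.

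All 19 B cell genes had a log2 fold change above 0, with a median of 0.34, and the median was -0.06 without DE 1. Ighm, the heavy chain of IgM, had 1440, 219 and 356 CPM in DE lungs, against 235, 333 and 196 CPM in C lungs. DE 1 was the high library, and the groups overlapped.

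Class-switched antibody genes were uneven. Ighg3 had 200.1, 1.34 and 20.0 CPM in DE lungs, against 1.86, 1.33 and 1.19 CPM in C lungs, with a DESeq2 adjusted p of 0.0040 and an edgeR adjusted p of 0.499. Its log2 fold change was 5.76 over all libraries and 2.96 without DE 1. Igha, the mucosal heavy chain, had 1262, 511 and 393 CPM in DE lungs, against 516, 859 and 992 CPM in C lungs. Ighg3 was high in DE 1 and DE 3, whereas Igha was lower in DE 2 and DE 3 than in any C lung. Of 16 plasma cell genes, 3 had an unadjusted p under 0.05, and the median log2 fold change was 0.35 with DE 1 and -0.26 without it.

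Of 14 tested genes of mast cells, basophils and eosinophils, 5 had an unadjusted p under 0.05 with DE higher and 2 with DE lower, and the median log2 fold change was 0.09. The 4 granule protease genes among them, singled out after their values were seen, were highest in DE 1 and DE 3. Mcpt4, a chymase, had 23.3, 3.13 and 15.3 CPM in DE lungs, against 1.43, 1.93 and 2.60 CPM in C lungs. Tpsb2, a tryptase, had 24.5, 2.69 and 9.67 CPM in DE lungs, against 0.186, 0.967 and 1.30 CPM in C lungs. Cma1 and Cpa3, a chymase and the carboxypeptidase of the same granules, also had all 3 DE lungs above the C lungs. The log2 fold change was 2.80 ± 0.71 for Mcpt4, 3.92 ± 1.02 for Tpsb2, 2.05 ± 0.66 for Cma1 and 2.43 ± 0.79 for Cpa3. Without DE 1 it was 2.19 for Mcpt4, 2.90 for Tpsb2, 1.19 for Cma1 and 1.70 for Cpa3.

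Other genes of this list did not follow. Kit, the receptor for stem cell factor, had 98.3, 99.1 and 120 CPM in DE lungs, against 190, 134 and 115 CPM in C lungs, and Hdc, which makes histamine, had log2 fold change 0.11 ± 0.34. Il1rl1, the receptor for interleukin 33, was lower in every DE lung, with 2.96, 2.99 and 3.16 CPM against 4.34, 4.83 and 5.41 CPM in C lungs. Fcer1a, the alpha chain of the IgE receptor, and Mrgprb2, a mast cell receptor, were too low to test.

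Fat cell genes were high in the same libraries. All 21 tested had a log2 fold change above 0, and 17 had an unadjusted p under 0.05. The median was 2.19, or 0.92 without DE 1 and 1.90 among October libraries. Only 3 of the 21 had the 3 DE libraries wholly above the C libraries. Adipoq, the adipocyte hormone adiponectin, had 197, 16.7 and 49.6 CPM in DE lungs, against 7.32, 10.8 and 20.1 CPM in C lungs. Ucp1, the uncoupling protein of brown fat, had 132, 1.34 and 26.5 CPM in DE lungs, against 0.062, 0 and 2.60 CPM in C lungs. Both were high in DE 1 and DE 3, and DE 2 was inside the range of the C lungs for each.

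The 21 fat genes summed to 4926, 719 and 1484 CPM in DE lungs and to 431, 636 and 789 CPM in C lungs, against 438 to 3524 CPM in the other 18 libraries. None of the 21 was at 0 in all C lungs. The part of adjacent fat or of lymph node tissue in the lymphoid and mast cell differences was not tested. Rag1, the recombinase of developing lymphocytes in the thymus, was at 0 CPM in all 6 libraries, and 3 of 11 thymus genes were high enough to test.

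Other tissues that border the lung were checked in the same way. Cartilage genes were a DE 1 feature, since the 9 tested had a median log2 fold change of 2.12 with DE 1 and -0.31 without it. Acan, the main proteoglycan of cartilage, had 12.1, 0.448 and 0.176 CPM in DE lungs, against 0, 0.846 and 2.06 CPM in C lungs. Genes of basal and squamous epithelium had a median of 1.34, and 0.28 without DE 1. Krt5, the keratin of airway basal cells, had 12.6, 1.49 and 2.46 CPM in DE lungs, against 0.124, 1.21 and 1.51 CPM in C lungs.

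Liver genes were near the limit of counting but were not confined to DE 1. Alb, serum albumin, had 3.40, 1.64 and 4.57 CPM in DE lungs, against 0.93, 0.121 and 0.216 CPM in C lungs. Apoa1, an apolipoprotein made by liver and gut, had 1.09, 0.448 and 2.29 CPM in DE lungs and 0 CPM in all 3 C lungs. Both genes had every DE lung above every C lung. Heart muscle genes, which mouse lung carries in the sleeves of its pulmonary veins, differed mostly through C 1. Myh6, the atrial myosin heavy chain, had 510, 321 and 362 CPM in DE lungs, against 131, 476 and 281 CPM in C lungs, and the list median of 0.55 was 0.17 among October libraries.

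Mesothelial genes, from the cells that cover the lung surface, differed more evenly. Of 13 tested, 7 had all DE lungs above all C lungs, against 7.6% of all genes, although none had an unadjusted p under 0.05. Msln, mesothelin, had 93.2, 94.8 and 84.5 CPM in DE lungs, against 50.03, 48.0 and 63.9 CPM in C lungs. Upk3b, a uroplakin of mesothelium, had 79.3, 83.7 and 82.1 CPM in DE lungs, against 48.4, 49.1 and 59.2 CPM in C lungs. Muc16, a surface mucin, and Wt1, a transcription factor of mesothelium, also did not overlap. The list median was 0.30, or 0.38 without DE 1 and 0.44 among October libraries.

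**Figure D2:**
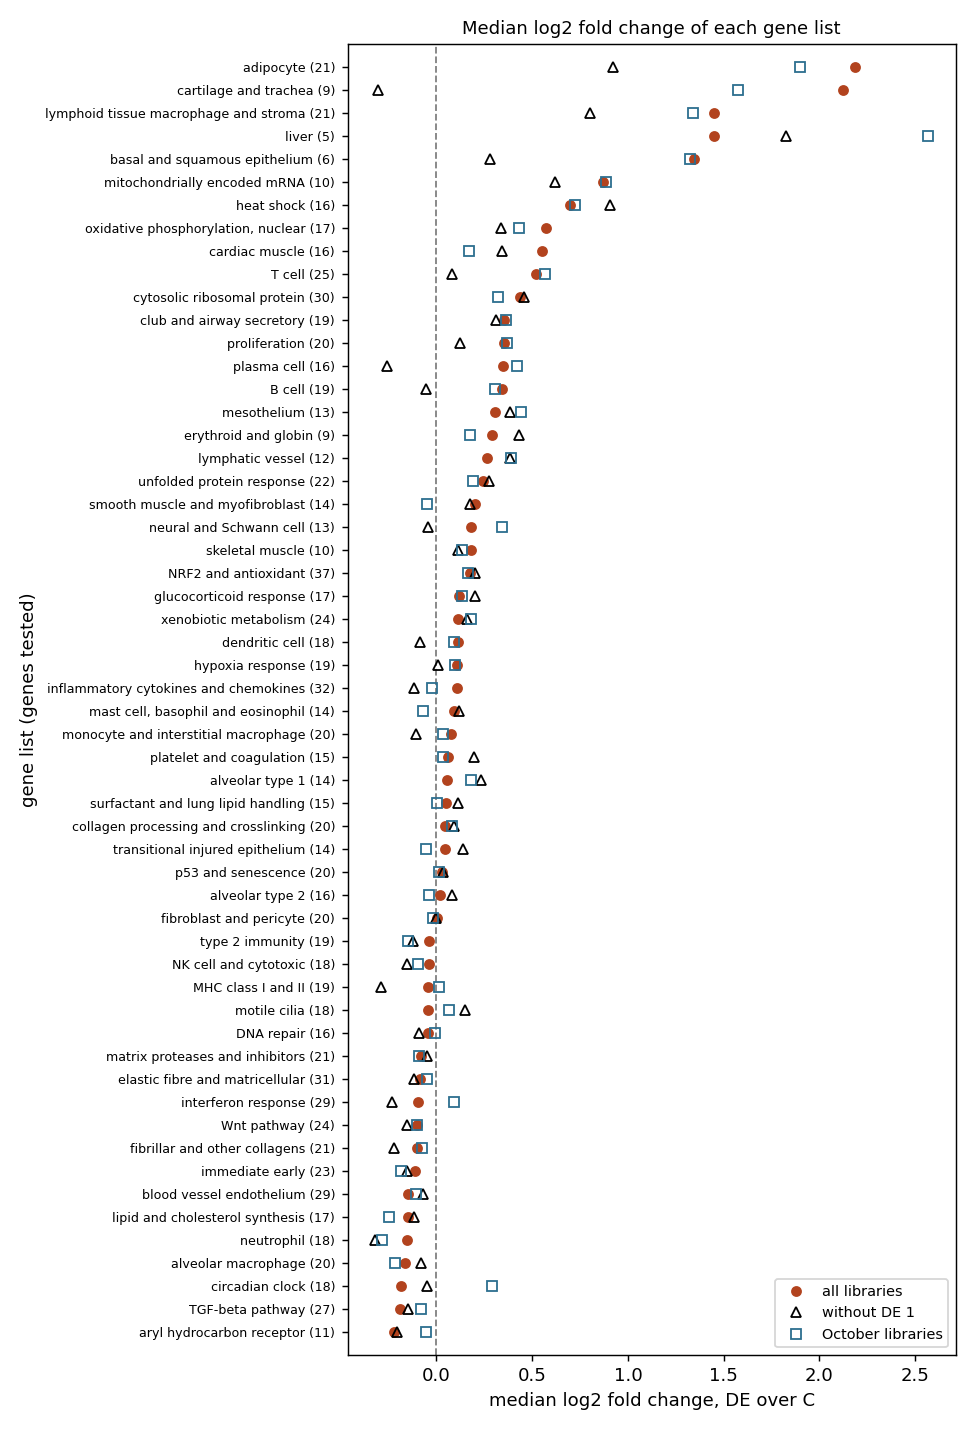
Median log2 fold change (DE over C) of each gene list, with all libraries (filled circles), without DE 1 (open triangles) and among October libraries (open squares). The dashed line is the median of all 17490 genes, -0.001; fat, lymphoid and cartilage lists lie farthest to the right with all libraries, and cartilage crosses the line without DE 1.

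The next group of differences did not depend on DE 1. Heat shock genes summed to 4191, 4910 and 7755 CPM in DE lungs and to 4166, 3895 and 3432 CPM in C lungs, with DE 3 the highest. Of 16 heat shock genes, 15 had a log2 fold change above 0 and 2 had an unadjusted p under 0.05. The median was 0.70, and it was 0.91 without DE 1 but 0.28 without DE 3. Hspa8, the constitutive HSP70, had 1074, 1434 and 1925 CPM in DE lungs, against 1194, 871 and 763 CPM in C lungs. Hspa1a, the inducible HSP70, had 51.7, 19.0 and 287 CPM in DE lungs, against 21.3, 50.9 and 22.6 CPM in C lungs. DE 3 was the highest library of both genes, and the groups overlapped. Hspe1, the mitochondrial co-chaperonin, did not overlap, with 89.1, 76.1 and 111 CPM in DE lungs against 44.8, 58.4 and 50.8 CPM in C lungs.

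Among 22 genes of the unfolded protein response in the endoplasmic reticulum, 7 had DE wholly above C and 1 wholly below, and none had an unadjusted p under 0.05. Ddit3, the stress factor CHOP, had 36.6, 48.4 and 45.4 CPM in DE lungs, against 20.4, 32.8 and 30.3 CPM in C lungs. Manf, a secreted factor of that response, had 140, 156 and 158 CPM in DE lungs, against 90.4, 112 and 111 CPM in C lungs. Hspa5, the central chaperone BiP, overlapped, at 486, 684 and 674 CPM in DE lungs and 524, 500 and 466 CPM in C lungs. The list median was 0.24, and 0.27 without DE 1.

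Nr4a3, an orphan nuclear receptor induced early after many stimuli, was the one gene of 23 immediate early genes whose groups did not overlap. It had 13.9, 13.9 and 22.7 CPM in DE lungs, against 4.71, 4.35 and 5.09 CPM in C lungs. Every DE lung lay well above the highest C lung, and the other 18 libraries ran from 4.37 to 25.9 CPM. The log2 fold change was 1.81 ± 0.47 (95% interval 0.82 to 2.79; edgeR unadjusted p = 0.0011, adjusted p = 0.81), and it was 1.93 without DE 1. Nr4a1, its relative, overlapped, and had 316, 99.6 and 252 CPM in DE lungs, against 59.5, 240 and 209 CPM in C lungs. Fos and Egr1, the classic immediate early genes, had log2 fold changes of -0.45 ± 0.63 and -0.19 ± 0.62, with DE 2 the lowest library for each.

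The start of Nr4a3 is shown because cyclic AMP signals act through the motif TGACG in many promoters. The window is RefSeq's on GRCm38.p6, chr4:48045055-48045354 on the plus strand, and runs from 250 bases before to 50 bases after the start. Capitals mark TGACG or its reverse complement CGTCA, matched on both strands with no overlap between matches.
Nr4a3: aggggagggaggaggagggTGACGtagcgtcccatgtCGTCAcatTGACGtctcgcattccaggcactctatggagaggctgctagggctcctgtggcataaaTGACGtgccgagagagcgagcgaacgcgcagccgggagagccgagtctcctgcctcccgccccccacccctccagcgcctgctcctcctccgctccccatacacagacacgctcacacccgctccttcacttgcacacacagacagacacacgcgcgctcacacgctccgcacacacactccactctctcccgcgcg
It holds 4 matches. Of 32851 RefSeq promoter windows of this length, 20.8% hold at least 1 and 0.231% hold at least 4. A match describes the letters and does not show that a factor was bound.

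Genes of ribosomes and mitochondria mostly had positive log2 fold changes. All 30 cytosolic ribosomal protein genes had a log2 fold change above 0, 27 had DE wholly above C, and none had an unadjusted p under 0.05. The median was 0.44, and 0.46 without DE 1. Rpl19, of the large subunit, had 545, 621 and 556 CPM in DE lungs, against 394, 413 and 466 CPM in C lungs. The 30 genes summed to 25490, 27350 and 24070 CPM in DE lungs and to 18160, 19820 and 21770 CPM in C lungs. These sums ran from 10720 to 86780 CPM in the other 18 libraries, a far wider span, with a median of 20970 CPM.

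All 17 tested nuclear genes of oxidative phosphorylation were above 0, 15 did not overlap, and their median was 0.57, or 0.34 without DE 1. Uqcrc2, of complex III, had 173, 140 and 129 CPM in DE lungs, against 115, 97.5 and 93.6 CPM in C lungs (log2 fold change 0.64 ± 0.24). Of 10 mitochondrially encoded mRNAs, 5 had an unadjusted p under 0.05, 4 had DE wholly above C, and log2 fold changes ran from 0.10 for mt-Nd6 to 1.52 for mt-Atp6. Their median was 0.87, or 0.62 without DE 1. mt-Atp6 and mt-Co3, which are in both of these counts, were near the limit of counting, and mt-Co2 was as low. mt-Atp6 had 4.49, 2.54 and 2.29 CPM in DE lungs, against 1.74, 0.483 and 1.19 CPM in C lungs. mt-Co3 had 5.15, 3.43 and 2.81 CPM in DE lungs, against 0.992, 1.33 and 2.38 CPM in C lungs. mt-Cytb, cytochrome b, had 7723, 5367 and 4359 CPM in DE lungs, against 4036, 2881 and 3424 CPM in C lungs. Reads of mitochondrial genes made up 3.55%, 2.30% and 2.03% of the DE libraries and 2.17%, 1.42% and 1.59% of the C libraries. Ribosomal and respiratory chain mRNAs are short, and the length trend given above also set C 1 apart from DE lungs. Medians among October libraries are therefore given as well. They were 0.32 for ribosomal genes, 0.43 for nuclear genes of oxidative phosphorylation and 0.88 for mitochondrially encoded mRNAs. The part of that trend in these differences was not tested.

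Genes that build scar were not higher as a group in DE lungs. None of 21 collagen genes had an unadjusted p under 0.05, 4 had a log2 fold change above 0, and the median was -0.10. Col1a1, the main chain of fibrillar type I collagen, had 313, 180 and 351 CPM in DE lungs, against 277, 386 and 371 CPM in C lungs. Its log2 fold change was -0.42 ± 0.39 (95% interval -1.24 to 0.39). Col3a1, of type III collagen, had 496, 271 and 518 CPM in DE lungs, against 362, 456 and 386 CPM in C lungs, with a log2 fold change of 0.09 ± 0.36 (95% interval -0.66 to 0.84). DE 2 was the lowest of the 6 libraries for both genes, and the groups overlapped.

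Basement membrane collagen was similar. Col4a1 had 473, 379 and 590 CPM in DE lungs, against 607, 601 and 538 CPM in C lungs, a log2 fold change of -0.35 ± 0.34. Col8a1, a short-chain collagen of vessel walls, was the one collagen with no overlap, at 9.31, 8.36 and 7.03 CPM in DE lungs and 11.3, 13.9 and 10.8 CPM in C lungs. The collagen list median was -0.003 without DE 2, -0.22 without DE 1, -0.25 without DE 3 and -0.07 among October libraries. Among enzymes that fold and crosslink collagen, Pcolce, an enhancer of procollagen cleavage, had 207, 209 and 228 CPM in DE lungs, against 119, 198 and 176 CPM in C lungs. Lox, the main crosslinking oxidase, had 27.4, 29.4 and 41.3 CPM in DE lungs, against 51.1, 31.7 and 34.2 CPM in C lungs. Of the 20 genes of this list 2 had DE wholly above C, and none had an unadjusted p under 0.05.

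Other matrix genes went both ways. Fn1, fibronectin, had 266, 216 and 280 CPM in DE lungs, against 246, 324 and 326 CPM in C lungs, a log2 fold change of -0.33 ± 0.31 (95% interval -0.98 to 0.33). Sparc, a collagen-binding matricellular protein, had 1803, 1901 and 2307 CPM in DE lungs, against 1625, 1631 and 1501 CPM in C lungs. Mfap4, an elastic fibre protein, had 820, 927 and 899 CPM in DE lungs, against 352, 679 and 667 CPM in C lungs. Sparc and Mfap4 had no overlap, and Fn1 did. Tnc, tenascin C, had 29.2, 10.6 and 23.4 CPM in DE lungs, against 8.49, 12.3 and 10.3 CPM in C lungs, following the pattern of the lymphoid genes. Tnxb, tenascin X, went the other way, at 94.0, 85.1 and 104 CPM in DE lungs and 125, 135 and 115 CPM in C lungs. Over 31 genes the median was -0.09.

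Markers of the activated fibroblast overlapped between the groups. Acta2, the actin of smooth muscle and myofibroblasts, had 479, 376 and 464 CPM in DE lungs, against 126, 435 and 463 CPM in C lungs. The low library was C 1, and among October libraries the log2 fold change was -0.03. Postn, periostin, had 199.9, 314 and 296 CPM in DE lungs, against 237, 252 and 241 CPM in C lungs. Cthrc1, a marker of collagen-producing fibroblasts in fibrotic mouse lung, had 4.27, 5.67 and 3.69 CPM in DE lungs, against 5.52, 4.71 and 6.06 CPM in C lungs. Notch3, a receptor of pericytes and vessel muscle, was lower in every DE lung, at 72.3, 44.5 and 68.6 CPM against 76.1, 119 and 103 CPM in C lungs.

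Genes of the TGF-beta pathway leaned lower in DE lungs. Of 27 tested, 7 had a log2 fold change above 0, 6 had DE wholly below C against 6.86% of all genes, and the median was -0.19, or -0.08 among October libraries. Smad4, the shared partner of the receptor-activated Smads, had 50.4, 50.6 and 50.5 CPM in DE lungs, against 75.0, 60.7 and 59.7 CPM in C lungs. Smad3, which carries the signal, had 43.3, 36.0 and 40.4 CPM in DE lungs, against 52.1, 55.1 and 47.3 CPM in C lungs. Smad7, an inhibitor of the pathway, had 67.0, 66.7 and 71.7 CPM in DE lungs, against 76.8, 100.1 and 79.2 CPM in C lungs. Tgfbr2, the ligand-binding receptor, was also lower in every DE lung. The ligand Tgfb1 overlapped, with 143, 97.6 and 119 CPM in DE lungs and 89.2, 153 and 123 CPM in C lungs. Smad4 alone had an unadjusted p under 0.05 in the direction of lower DE levels (log2 fold change -0.31 ± 0.14).

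**Figure D3:**
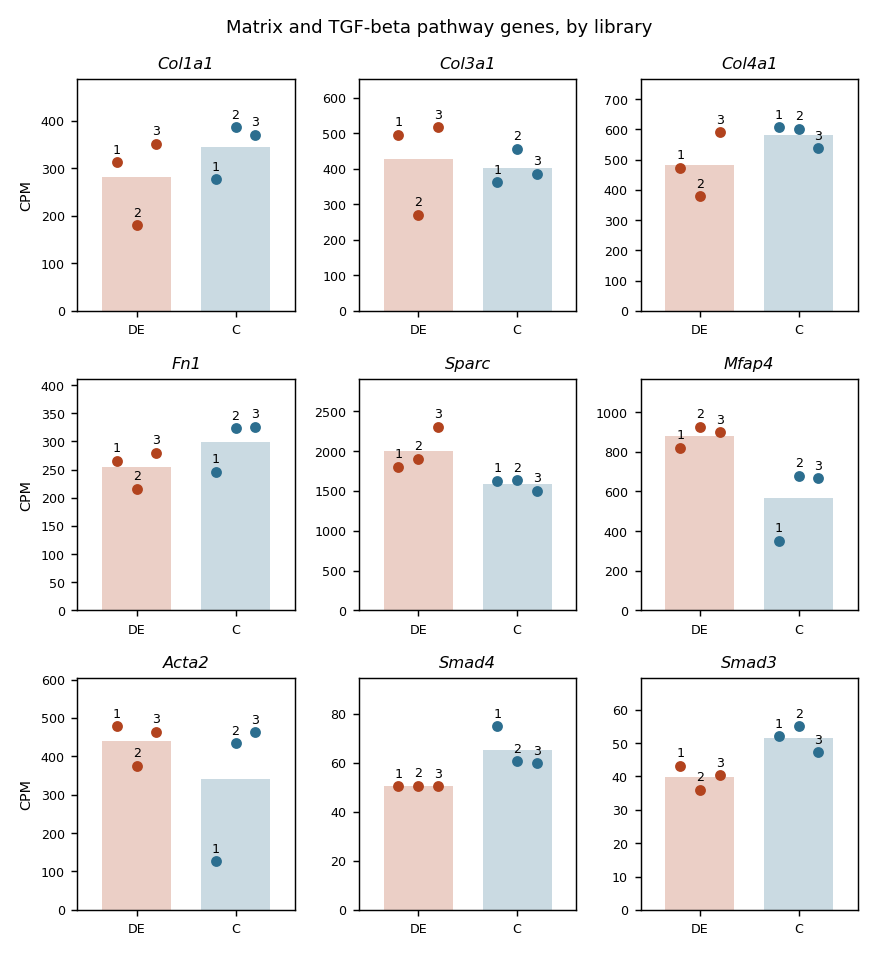
Level of 9 matrix and TGF-beta pathway genes (Col1a1, Col3a1, Col4a1, Fn1, Sparc, Mfap4, Acta2, Smad4, Smad3) in each library, in CPM on a linear axis from 0. Each numbered point is 1 library and each bar is the mean of the 3 libraries, with DE left of C; Smad4 and Smad3 lie lower in every DE lung, Sparc and Mfap4 higher, and the collagens, Fn1 and Acta2 overlap.

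Targets of the aryl hydrocarbon receptor were not higher as a group in DE lungs. Cyp1a1, the enzyme most tightly tied to the aryl hydrocarbon receptor, had 8.43, 7.76 and 8.61 CPM in DE lungs, against 153, 7.13 and 6.71 CPM in C lungs. The one high library was C 1, of the March batch, and without it all 3 DE lungs were slightly above the 2 remaining C lungs. The log2 fold change was -0.62 ± 1.17 (95% interval -3.07 to 1.83) over all libraries and 0.26 among October libraries. Cyp1b1, which oxidises the same hydrocarbons, had 25.9, 11.3 and 15.1 CPM in DE lungs, against 20.2, 5.44 and 10.2 CPM in C lungs. It was higher than both October C lungs in every DE lung, with a log2 fold change of 0.94 ± 0.39 (edgeR unadjusted p = 0.026, adjusted p = 0.99), or 1.17 among October libraries and 0.53 without DE 1.

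The windows around the starts of these 2 genes are shown because the receptor binds the core GCGTG. They are RefSeq's on GRCm38.p6, chr9:57697363-57697662 on the plus strand for Cyp1a1 and chr17:79715012-79715311 on the minus strand for Cyp1b1, written along each gene. Capitals mark GCGTG or its reverse complement CACGC.
Cyp1a1: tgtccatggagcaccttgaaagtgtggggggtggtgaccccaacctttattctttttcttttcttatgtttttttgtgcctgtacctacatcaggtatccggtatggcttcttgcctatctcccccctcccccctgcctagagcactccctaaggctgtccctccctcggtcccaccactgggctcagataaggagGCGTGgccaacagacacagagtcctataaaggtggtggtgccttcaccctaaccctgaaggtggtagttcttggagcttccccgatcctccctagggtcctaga
Cyp1b1: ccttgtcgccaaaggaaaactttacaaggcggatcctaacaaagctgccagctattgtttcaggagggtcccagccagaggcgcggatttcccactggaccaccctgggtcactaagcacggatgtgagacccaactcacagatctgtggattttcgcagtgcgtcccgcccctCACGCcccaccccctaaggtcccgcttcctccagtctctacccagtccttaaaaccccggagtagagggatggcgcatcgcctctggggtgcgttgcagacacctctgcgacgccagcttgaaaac
Each window holds 1 match, and 32.4% of 32851 RefSeq windows hold at least 1. More distant sites lie outside these windows.

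The receptor itself was lower in every DE lung. Ahr had 43.8, 49.0 and 54.9 CPM in DE lungs, against 84.6, 63.2 and 56.2 CPM in C lungs, a log2 fold change of -0.43 ± 0.29, or -0.28 without C 1. Tiparp, a target that feeds back on the receptor, had 20.7, 28.4 and 28.6 CPM in DE lungs, against 35.6, 19.0 and 22.9 CPM in C lungs. The groups of Ahr did not overlap, and those of Tiparp did. Ahrr, the receptor's repressor, and Cyp1a2 were too low to test. Of 11 genes tested, 1 had an unadjusted p under 0.05, 3 had a log2 fold change above 0, and the median was -0.22, or -0.06 among October libraries.

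NRF2 and antioxidant genes lay in both directions. Of 37 tested, 26 had a log2 fold change above 0, 4 had DE wholly above C, 2 wholly below, and the median was 0.17, or 0.17 among October libraries. Hmox1, heme oxygenase 1, had 48.5, 45.5 and 65.0 CPM in DE lungs, against 51.0, 39.9 and 44.8 CPM in C lungs, a log2 fold change of 0.31 ± 0.24 (95% interval -0.19 to 0.82). Nqo1, a quinone reductase, had 8.10, 10.8 and 7.56 CPM in DE lungs, against 31.3, 7.61 and 5.84 CPM in C lungs. As for Cyp1a1, the high library was C 1. Gsr, which regenerates reduced glutathione, was the only member with an unadjusted p under 0.05, and it was lower, at 50.5, 54.0 and 49.4 CPM in DE lungs and 82.4, 61.3 and 70.7 CPM in C lungs (log2 fold change -0.38 ± 0.17).

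Metal and peroxide defences had small differences in the other direction. Mt1, a metallothionein, had 80.2, 76.3 and 67.7 CPM in DE lungs, against 67.2, 40.7 and 63.9 CPM in C lungs. Gpx4, which reduces lipid peroxides, had 495, 468 and 418 CPM in DE lungs, against 286, 355 and 378 CPM in C lungs. Gpx3, secreted glutathione peroxidase, had 1438, 1497 and 1640 CPM in DE lungs, against 777, 1416 and 1313 CPM in C lungs. All 3 were higher in every DE lung, by margins that were small beside the spread among C lungs. Gclm, a subunit of the enzyme that starts glutathione synthesis, and Txnrd1, thioredoxin reductase, had log2 fold changes of -0.27 ± 0.20 and -0.26 ± 0.24.

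Among enzymes of xenobiotic metabolism, Cyp2e1, which oxidises ethanol and small solvents, had 193, 36.4 and 51.7 CPM in DE lungs, against 27.4, 19.8 and 20.1 CPM in C lungs. Its groups did not overlap, with a log2 fold change of 2.12 ± 0.65 (edgeR unadjusted p = 0.0038, adjusted p = 0.99), or 1.03 without DE 1. Cyp2e1 was highest in DE 1, the library with the highest sum of fat genes, and adipocytes express this gene as well; their part was not tested. Aldh2, the mitochondrial aldehyde dehydrogenase, was lower in every DE lung, at 1007, 1147 and 1194 CPM against 1297, 1350 and 1343 CPM in C lungs. Cyp2f2, the main oxidase of club cells, had 3329, 5073 and 3314 CPM in DE lungs, against 4424, 2835 and 3129 CPM in C lungs.

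**Figure D4:**
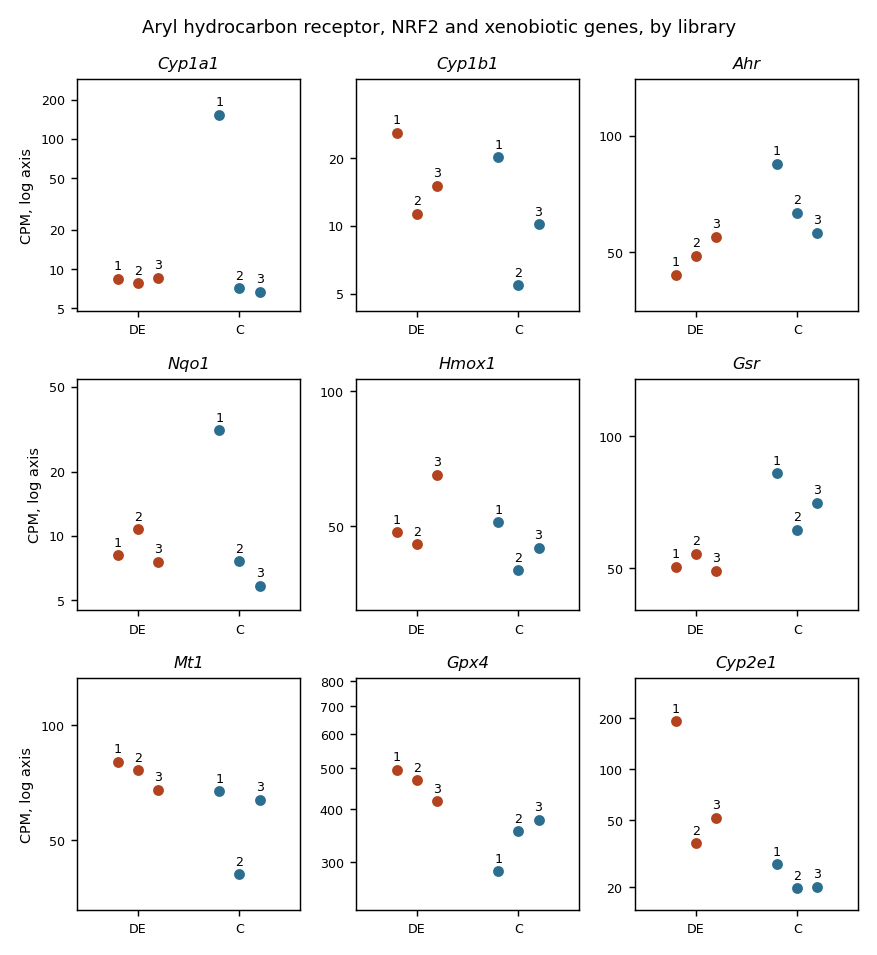
Level of 9 aryl hydrocarbon receptor, NRF2 and xenobiotic genes (Cyp1a1, Cyp1b1, Ahr, Nqo1, Hmox1, Gsr, Mt1, Gpx4, Cyp2e1) in each library, in CPM on a log axis. Each numbered point is 1 library, with DE left of C; C 1 is the highest library for Cyp1a1 and Nqo1, and Gsr and Ahr lie lower in every DE lung.

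Macrophage genes lay in both directions. Chil3, a chitinase-like protein of alveolar macrophages, had 195, 292 and 259 CPM in DE lungs, against 310, 424 and 1016 CPM in C lungs. Itgax, the integrin CD11c, had 40.3, 37.3 and 42.2 CPM in DE lungs, against 54.8, 58.2 and 74.9 CPM in C lungs. Both were lower in every DE lung, and the log2 fold change of Chil3 was -1.22 ± 0.40 (edgeR unadjusted p = 0.0068, adjusted p = 0.99). The value for Chil3 rests on C 3, since it was -0.46 without that library. Ccl6, a chemokine of myeloid cells, was lower too, at 128, 159 and 115 CPM in DE lungs and 168, 189 and 456 CPM in C lungs, and its log2 fold change was -0.90 over all libraries but -0.09 without C 3. Siglecf, which marks alveolar macrophages and eosinophils, overlapped, with a log2 fold change of 0.08 ± 0.32. Of 20 alveolar macrophage genes, 3 had an unadjusted p under 0.05 with DE higher and 1 with DE lower. In 4 of the 20, DE lay wholly below C, and in 3 wholly above, namely Fabp1, Cidec and Lpl. Cidec, which coats lipid droplets, and Lpl, which releases fatty acids from lipoproteins, are made by fat cells as well. Without DE 1, where the fat gene sum was highest, the log2 fold change was 0.88 for Cidec, against 1.80 over all libraries, and 0.42 for Lpl, against 0.74. The part of fat tissue was not tested.

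Marco, a scavenger receptor for inhaled particles that lymphoid macrophages also carry, had 198, 24.0 and 73.0 CPM in DE lungs, against 35.0, 12.7 and 46.2 CPM in C lungs. It followed DE 1 and DE 3, as Cd209b did, while DE 2 lay inside the range of the C lungs. Complement C1qa had 133, 52.4 and 77.2 CPM in DE lungs, against 41.1, 53.5 and 60.5 CPM in C lungs, the same order again. Ccr2, the receptor that brings monocytes out of the blood, was lower in every DE lung, at 25.9, 28.1 and 13.9 CPM against 45.3, 44.7 and 29.9 CPM in C lungs. Gpnmb and Trem2, of lipid-laden macrophages, were highest in C 3 and had log2 fold changes of -1.14 ± 0.61 and -0.95 ± 0.47. Without C 3 these were -0.33 for Gpnmb and -0.29 for Trem2. Of 20 tested genes of monocytes and interstitial macrophages, 4 had an unadjusted p under 0.05 with DE higher, against 1.95% of all genes. None had one with DE lower. In 1 of the 20, DE lay wholly above C, and in 2 wholly below. The median of that list was 0.07, or -0.11 without DE 1 and 0.03 among October libraries.

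Granulocyte and cytokine genes lay in both directions. None of 18 neutrophil genes had an unadjusted p under 0.05. S100a8, an abundant calcium-binding protein of neutrophils, had 49.0, 85.1 and 35.3 CPM in DE lungs, against 26.6, 53.2 and 73.6 CPM in C lungs. Il1b, interleukin 1 beta, had 35.1, 25.2 and 25.1 CPM in DE lungs, against 19.6, 40.7 and 30.4 CPM in C lungs. Il6 and Tnf were near or below 2 CPM in every library, with log2 fold changes of 0.58 ± 0.68 and -0.04 ± 0.57. Cxcl14, a chemokine of epithelium and fibroblasts, was lower in every DE lung, at 104, 107 and 134 CPM against 164, 158 and 141 CPM in C lungs. Over 32 cytokine and chemokine genes, 2 had an unadjusted p under 0.05 with DE higher and 1 with DE lower.

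Interferon genes set C 1 apart and not DE lungs. Iigp1, an interferon-gamma-induced GTPase, had 42.9, 37.3 and 32.9 CPM in DE lungs, against 168, 29.4 and 35.0 CPM in C lungs. Gbp7, a guanylate-binding protein, had 32.6, 32.8 and 33.9 CPM in DE lungs, against 115, 36.2 and 34.3 CPM in C lungs. The median of 29 interferon genes was -0.10 over all libraries, 0.09 among October libraries and -0.23 without DE 1. Cxcl9, an interferon-gamma-induced chemokine for T cells, was high in DE 1 alone, at 16.1 CPM, against 1.19 and 3.52 CPM in DE 2 and DE 3 and 1.62 to 2.48 CPM in C lungs.

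Alveolar epithelial lists had medians near 0. None of 16 alveolar type 2 genes and 14 alveolar type 1 genes had an unadjusted p under 0.05, and the list medians were 0.02 and 0.06. Without DE 1 they were 0.08 and 0.23. Of the 16 type 2 genes, 4 had DE wholly below C, against 6.86% of all genes, and 1 wholly above. Within the type 2 list, the lineage factor Nkx2-1 was lower in every DE lung, at 155, 172 and 196 CPM against 218, 199 and 216 CPM in C lungs. Etv5, a factor that maintains type 2 cells, was lower as well, at 110, 98.5 and 120 CPM against 144, 126 and 128 CPM in C lungs. Sftpb, a surfactant protein, overlapped, with a log2 fold change of 0.05 ± 0.27. Clu, clusterin, a secreted chaperone of injured epithelium and of lymphoid stroma, had 510, 312 and 394 CPM in DE lungs, against 205, 270 and 278 CPM in C lungs (log2 fold change 0.65 ± 0.20, edgeR unadjusted p = 0.0047, adjusted p = 0.99). Krt8, a keratin of transitional cells, had 210, 309 and 251 CPM in DE lungs, against 220, 206 and 251 CPM in C lungs. Of 19 club and airway secretory genes, 16 had a log2 fold change above 0 and none had an unadjusted p under 0.05. The median of that list was 0.35, or 0.31 without DE 1, 0.13 without DE 2 and 0.36 among October libraries. In it 1 gene had DE wholly above C and 1 wholly below.

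Genes of blood vessel endothelium had a slightly negative median. Of 29 tested, 10 had a log2 fold change above 0, and 3 had DE wholly below C (10.34%, against 6.86% of all genes). The median was -0.15, or -0.07 without DE 1 and -0.04 without C 2. Sox17, an arterial transcription factor, had at most 56.4 CPM in DE lungs, against 61.0, 90.5 and 62.0 CPM in C lungs (log2 fold change -0.44 ± 0.17, or -0.25 without C 2). Vwf, von Willebrand factor, had 414, 434 and 544 CPM in DE lungs, against 800, 650 and 591 CPM in C lungs. Cdh5, the cadherin of endothelial junctions, also did not overlap. Pecam1, a pan-endothelial marker, did overlap, with a log2 fold change of 0.07 ± 0.21.

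Adrb1 and Tril had the smallest unadjusted p among genes lower in DE lungs. Adrb1, the beta-1 adrenergic receptor, had 43.5, 52.4 and 39.6 CPM in DE lungs, against 66.7, 73.0 and 69.0 CPM in C lungs. Tril, an accessory protein of Toll-like receptor 4, had 19.3, 18.8 and 17.9 CPM in DE lungs, against 39.6, 33.5 and 26.7 CPM in C lungs. The log2 fold changes were -0.70 ± 0.18 for Adrb1 and -0.82 ± 0.21 for Tril, with an edgeR adjusted p of 0.78 for each. Both groups of libraries stood clear of each other, and neither difference rested on DE 1, since the log2 fold changes without it were -0.67 and -0.85.

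The other 10 of the 12 lower genes with the smallest unadjusted p are given next. Fzd7, a Wnt receptor, had 20.3, 22.7 and 26.7 CPM in DE lungs, against 45.9, 34.7 and 35.9 CPM in C lungs. Pcbp3, an RNA-binding protein, had 32.3, 32.7 and 32.0 CPM in DE lungs, against 37.6, 48.7 and 47.3 CPM in C lungs. Zfp503, a zinc finger repressor, had 45.2, 57.3 and 51.5 CPM in DE lungs, against 100.5, 73.7 and 69.2 CPM in C lungs. These 3 and Olfm1, Fjx1, Sema6c, Zbed3 and Chil3 did not overlap, whereas Hic1 and Prrt4 did. Their log2 fold changes ran from -1.22 for Chil3 to -0.46 for Olfm1.

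Further lists are given more briefly. Of 24 Wnt pathway genes, 7 were above 0 and 2 wholly below C, with Lrp5, a Wnt co-receptor, at 100.1, 92.1 and 112 CPM in DE lungs and 156, 141 and 122 CPM in C lungs. Of 20 proliferation genes, 18 were above 0 and 3 wholly above C, with a median of 0.35 that was 0.13 without DE 1. Mki67 had 17.96, 12.2 and 14.4 CPM in DE lungs against 25.4, 9.43 and 10.9 CPM in C lungs. Of 19 hypoxia genes, 4 had DE wholly above C and 2 wholly below, against 7.6% and 6.86% of all genes. Among them, Egln3, an oxygen-sensing hydroxylase, had 5.70, 4.93 and 4.75 CPM in DE lungs, against 1.74, 2.66 and 2.38 CPM in C lungs. Epas1, the oxygen-sensitive factor HIF-2 alpha, was lower in every DE lung. The p53 and DNA repair lists had medians of 0.03 and -0.04 and no gene with an unadjusted p under 0.05.

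Clock genes differed among all libraries, and the hour of death is not in the labels. Dbp, a strongly rhythmic factor, had 29.9, 178 and 52.2 CPM in DE lungs, against 90.2, 13.9 and 14.7 CPM in C lungs. Cry1, a clock repressor, had 11.7, 8.21 and 9.67 CPM in DE lungs, against 36.1, 20.2 and 16.9 CPM in C lungs. Nr1d1, the repressor REV-ERB alpha, had 150, 254 and 175 CPM in DE lungs, against 73.5, 88.9 and 72.5 CPM in C lungs. Cry1 was lower and Nr1d1 higher in every DE lung, while Dbp overlapped. With the batch term, the log2 fold change of Nr1d1 was 0.15 ± 1.15, and it was 1.26 among October libraries. The part of time of day in the other differences was not tested.

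**Figure D5:**
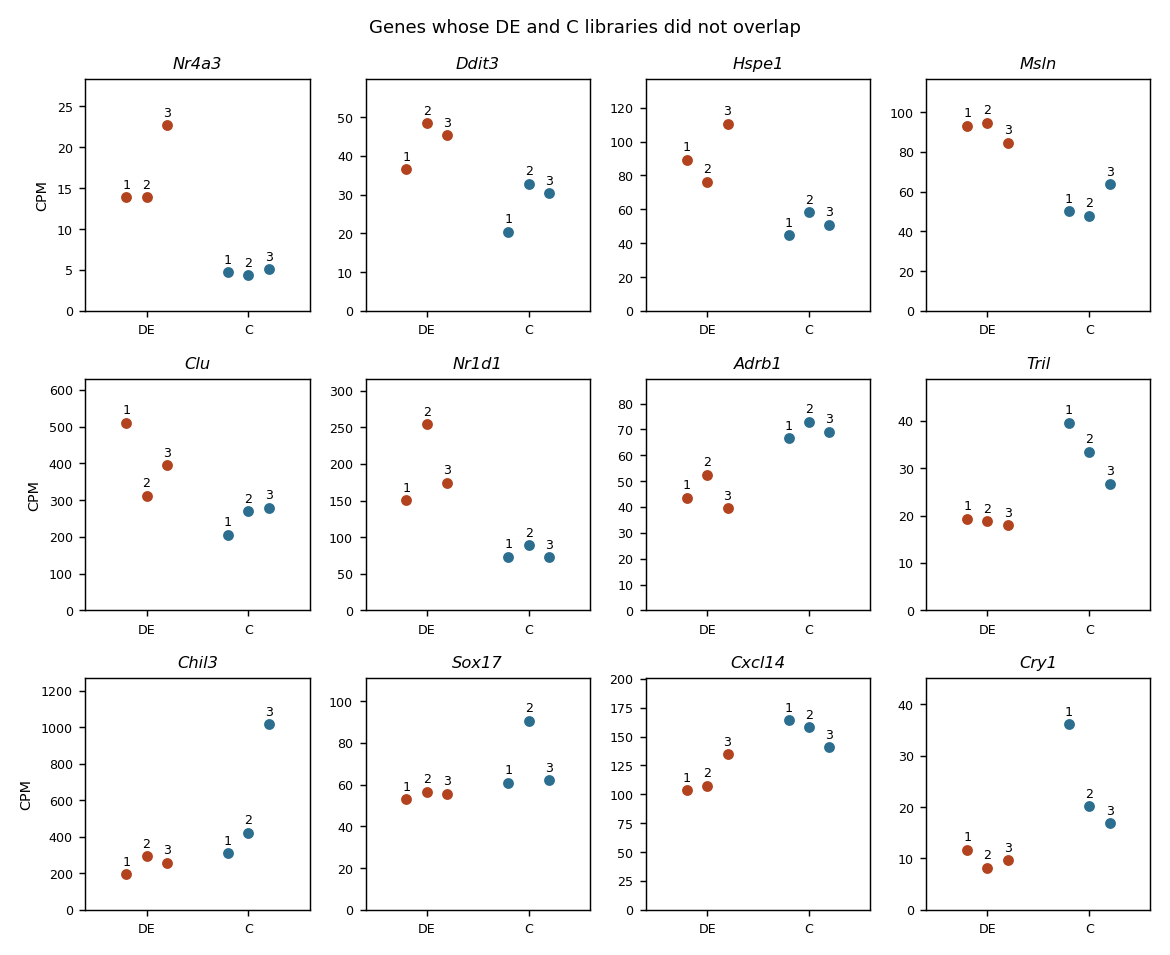
Level of 12 genes in each library, in CPM on a linear axis from 0: Nr4a3, Ddit3, Hspe1, Msln, Clu and Nr1d1, higher in every DE lung, then Adrb1, Tril, Chil3, Sox17, Cxcl14 and Cry1, lower in every DE lung. Each numbered point is 1 library, with DE left of C; the groups do not overlap in any panel, and no gene shown passed the edgeR threshold.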

How the data were processed

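RNA was extracted with TRIzol and made into strand-specific poly(A) libraries, per the labels' protocols. The authors deposited raw read counts per gene for all 24 libraries. Per the submitters' processing notes, FastQC 0.12.1, fastp 0.23.4, STAR 2.7.11b, featureCounts, GRCm39, R 4.4.1 and DESeq2 were used. Neither source states the strand setting, annotation release or handling of multi-mapping reads, and antibody genes and close paralogs are uncertain for that reason. Symbols came from a GENCODE table on GRCm38, used for names and lengths alone, and matched 51486 of 78275 gene IDs, which hold 98.45% of the counts. Depth per library is given with the data.

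Counts were analysed in R 4.3.3 with edgeR 4.0.16. Genes were kept by filterByExpr and scaled by the trimmed mean of M values. One quasi-likelihood model over all 24 libraries had a term for each group and for the batch date, and the DE minus C contrast was adjusted over all tested genes by Benjamini-Hochberg at 0.05. A ± after a log2 fold change is its SE. Overlap was judged on log2 CPM with a prior count of 2. DESeq2 1.42.0, other filters, scalings and batch terms, a replicate block and leaving out each library were alternatives. The code was tested on simulated data.

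Genes were named from the 12 smallest p-values in each direction among protein-coding genes at a mean of 1 CPM or more, and from lists, by the 5 smallest p-values and the 4 highest levels; collagen, aryl hydrocarbon receptor, NRF2, mast cell, adipocyte and lymphoid lists could be named in full. The lists and the members of the comparison were chosen with earlier results of these data known. Some list genes outside that rule were named after their values were seen. Replicate libraries differed by more than sampling noise in every pair. Libraries that share a number did not deviate together, so the numbers were not used to pair samples.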

Additional observations from a re-analysis of the deposited data

How the results depend on the processing

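The count of 0 genes past the edgeR threshold was 199 with no filter on low counts and 13 with DESeq2, and it ran from 0 to 16 over the fits that left out 1 library, the 16 arising without DE 2. It was 0 under the other 9 alternatives. Without a filter the prior degrees of freedom were infinite, against 5.38, so each gene's own spread was not used, and the SE of Cidea was 0.30 in place of 1.30. A replicate block gave 0 calls with and without the batch term. Deviations of same-numbered DE and C libraries had correlations of -0.301, -0.206 and -0.0793, so the numbers were not used to pair them. These correlations cannot show whether mice shared a cage or a day, because C 1 alone is of the March batch.

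The 1329 genes with DE wholly above C were 2287 among October libraries, and between 2128 and 2401 when 1 library was left out. The 1200 genes wholly below were 2478 among October libraries, and between 1880 and 2569 when 1 library was left out. Fewer libraries make non-overlap easier to reach.

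A direction is called reversed where a log2 fold change lay beyond 1 SE of 0, or a list's median beyond the SD of its library levels, and its sign differed under an alternative. Acan, at 2.196 over all libraries, was -3.70 with the replicate block and the batch term and ran from -1.55 to 3.54 when 1 library was left out. The cartilage median was -0.88 with that block and ran from -0.31 to 2.71 when 1 library was left out. Hspa1a ran from -0.089 without DE 3 to 2.16 without DE 2. Iigp1 was 0.24 among October libraries and with the DE and C libraries alone and the batch term, and ran from -1.27 without C 2 to 0.23 without C 1. The hypoxia median ran from -0.013 without C 2 to 0.19 without DE 3. The causes were not tested. Of 29 named genes within 1 SE of 0, 20 had the other sign under some setting. Levels near 0 CPM rest on few counts.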
